A study of Mus musculus with 8 samples.

Results

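Genes that interferon switches on lie in the mouse genome as runs of related copies, and the contacts that these runs made were followed through the first cell cycle of activated B cells. Protein-coding genes of the autosomes were taken where the symbol begins with Gbp, Ifit, Oas, Slfn, Trim30 or Ifi20, leaving out Ifitm and Oaz genes, which gave 48 of 20807 genes. Their starts fell in 34 bins of 50 kb, and 10 of these bins held more than 1 start. Members whose starts lay within 500 kb of the next were joined, which gave 8 clusters: Ifi20 genes on chromosome 1 (8 members), Gbp genes on chromosomes 3 and 5 (5 members each), Oasl genes on chromosome 5 (2 members), Oas genes on chromosome 5 (9 members), Trim30 genes on chromosome 7 (4 members), Slfn genes on chromosome 11 (8 members) and Ifit genes on chromosome 19 (6 members). Slfnl1 on chromosome 4 lay alone.

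Interferons bind receptors on the cell surface, Janus kinases then phosphorylate STAT proteins, and STAT complexes with IRF9 bind the interferon-stimulated response element (ISRE) in target promoters. Gbp genes encode guanylate-binding proteins, which attack the membranes around intracellular pathogens. Oas enzymes make 2'-5' oligoadenylates on double-stranded RNA, which activate an RNA-degrading enzyme, Ifit proteins bind foreign RNA ends, Ifi20 proteins sense or bind nucleic acid, Slfn proteins restrict growth and translation, and Trim30 proteins belong to the tripartite-motif family.

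In situ Hi-C joins and sequences pieces of DNA that touch in the nucleus, so that each read pair is a contact. The 8 libraries formed 4 groups with 2 biological replicates each, all from splenic B cells of mice cultured with 25 µg/ml lipopolysaccharide (LPS), a bacterial activator of B cells. The groups were cells at 3 h, cells at 10 h, undivided cells at 33 h (imminent division), all from C57BL/6 mice, and cells at 33 h from C57BL/6 FUCCI transgenic mice, whose fluorescent reporters mark the cell cycle phase (pre-S). The first 3 groups were sorted by a gate whose terms included TCRb-, CD69+ and the highest signal of CellTrace Violet, a dye diluted by division. The pre-S cells were sorted by a gate whose terms included CD69+, the highest dye signal, mAG- and mKO2 high, so reporter transgene and gate differ together with this group and cannot be told apart from it. The mice were male and on a C57BL/6 Pep3b background per the study's methods, and the comparisons with 10 h share the same 10 h libraries. Contacts hold no expression, so the labelled cell type was not checked against markers. Libraries held 88703088 to 218945191 read pairs. In imminent division replicate 2, 3.74% of read ends lay on chromosome X and 0.0490% on Y, against 2.39% to 2.84% and 0.0804% to 0.123% in the other 7 libraries, so that library stands apart and the counts of calls are also given without it.

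The ISRE core was looked for in the promoters because it is the shared feature that interferon target genes are known for. Promoter windows of 300 bases, from 250 before to 50 after a start, were available from RefSeq on GRCm38.p6 for 39 of the 48 members. The core, GAAA followed after NN by a second GAAA, on either strand, stood in 24 of the 39 (61.5%), against 4.02% of all autosomal genes with a window. All 5 Gbp genes with a window held it, as did 5 of 7 Ifi20, 5 of 6 Ifit, 4 of 8 Oas, 3 of 9 Slfn and 2 of 4 Trim30 genes. The windows of Ifit1 and Ifit1bl2 overlap on opposite strands, and the same matched bases count for both genes. The gamma-activated site TTCNNNGAA, its own reverse complement, stood in 6 of the 39 (15.4%), against 9.64% of all genes. A match describes the letters and does not show that a factor binds. One promoter of each family, and a second one of the Oas family, is shown over the 150 bases before the start, 5' to 3' on the strand of the gene, with the matches to the core in capitals.
Ifi206: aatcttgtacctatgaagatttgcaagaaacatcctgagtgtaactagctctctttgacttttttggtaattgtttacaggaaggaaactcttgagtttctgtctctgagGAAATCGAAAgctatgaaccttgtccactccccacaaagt
Gbp2: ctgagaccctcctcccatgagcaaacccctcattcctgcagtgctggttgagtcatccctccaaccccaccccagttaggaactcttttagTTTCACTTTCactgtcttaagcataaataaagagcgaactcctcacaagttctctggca
Oas1a: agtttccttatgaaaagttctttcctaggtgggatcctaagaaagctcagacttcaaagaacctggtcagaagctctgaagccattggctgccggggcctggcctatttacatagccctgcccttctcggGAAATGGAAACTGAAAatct
Oas1g: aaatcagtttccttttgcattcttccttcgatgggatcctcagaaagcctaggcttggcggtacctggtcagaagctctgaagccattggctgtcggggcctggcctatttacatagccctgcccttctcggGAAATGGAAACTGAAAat
Trim30a: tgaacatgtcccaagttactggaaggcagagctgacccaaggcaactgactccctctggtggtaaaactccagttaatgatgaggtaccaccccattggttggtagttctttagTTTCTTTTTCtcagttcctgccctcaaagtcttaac
Slfn9: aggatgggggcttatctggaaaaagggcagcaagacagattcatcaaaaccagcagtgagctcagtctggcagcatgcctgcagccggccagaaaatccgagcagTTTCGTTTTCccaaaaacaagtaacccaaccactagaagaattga
Ifit1: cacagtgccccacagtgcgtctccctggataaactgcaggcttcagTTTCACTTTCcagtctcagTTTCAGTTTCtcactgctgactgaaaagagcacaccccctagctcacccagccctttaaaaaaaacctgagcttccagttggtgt
These stretches are chr1:173491319-173491468 (minus strand, Ifi206), chr3:142620513-142620662 (plus, Gbp2), chr5:120907526-120907675 (minus, Oas1a), chr5:120887614-120887763 (minus, Oas1g), chr7:104465194-104465343 (minus, Trim30a), chr11:82991831-82991980 (minus, Slfn9) and chr19:34640739-34640888 (plus, Ifit1). Oas1a and Oas1g carry the same pair of overlapping matches close to the start, and Ifit1 carries a pair that do not overlap.

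Promoter contacts were summed over the interactions of each start bin that stood above the genome-wide decay with distance. They are given as normalised CPM, contacts scaled by loess offsets that depend on the library and on the contact level of the bin. These values are therefore not raw counts divided by the size of the library. Of the 34 bins, 33 passed the filter on low counts; the bin of Slfn1 did not. The first comparison asks what changed between 3 h and 10 h. Of the 33 bins, 1 was lower and none was higher at an FDR of 5%, where 0.875% of 12344 promoter bins were called (0.705% higher and 0.170% lower). It was the bin of Oas1c and Oas1f, which fell by 0.19 ± 0.05 on the log2 scale (SE, edgeR quasi-likelihood test, FDR 0.033). This call was not made with TMM scaling, by DESeq2, without the interaction filter, with the replicate block or with the coverage of each bin by contacts with other chromosomes in the offsets (where Trim30b was called higher instead, by 0.19), nor without 3 h replicate 1, 10 h replicate 1 or 10 h replicate 2. The 33 bins included 6 with an unadjusted p under 0.05, against 1746 of all 12344.

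Between 10 h and imminent division, contacts rose at 19 member bins and fell at 5, where 25.4% and 25.6% of all promoter bins did (51.0% in either direction). The median change was 0.16 over the 33 bins and -0.00 over all bins (log2). Without imminent division replicate 2, 14 rose and 5 fell. Without the interaction filter 16 rose and 4 fell, with a member median of 0.07. Between 10 h and pre-S, 11 rose and 9 fell, where 17.9% and 16.9% of all bins did (34.9% in either direction), and the median over the members was 0.07. This split depended on the method, with 3 higher and 6 lower by DESeq2, 5 and 5 with coverage in the offsets, and 10 and 12 without the interaction filter, where the medians were 0.09, 0.02 and 0.02. Without pre-S replicate 1 the 20 calls became 10. Between the 33 h groups, 12 member bins were higher and 1 was lower at imminent division, where 9.02% and 10.7% of all bins were (19.7% in either direction); with TMM factors 8 were higher and none lower, and without imminent division replicate 2, 10 were higher and 2 lower. All 4 Oas bins fell at both 33 h stages, all 4 Gbp bins of chromosome 3 rose at both, and all 8 Ifi20 bins rose at imminent division. In the Slfn cluster the changes at pre-S had both signs, from -0.37 to 0.12, as they had in the Trim30 cluster, from -0.06 to 0.15. Neighbouring bins share contacts, so bins of 1 cluster are not independent.

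**Figure D1:**
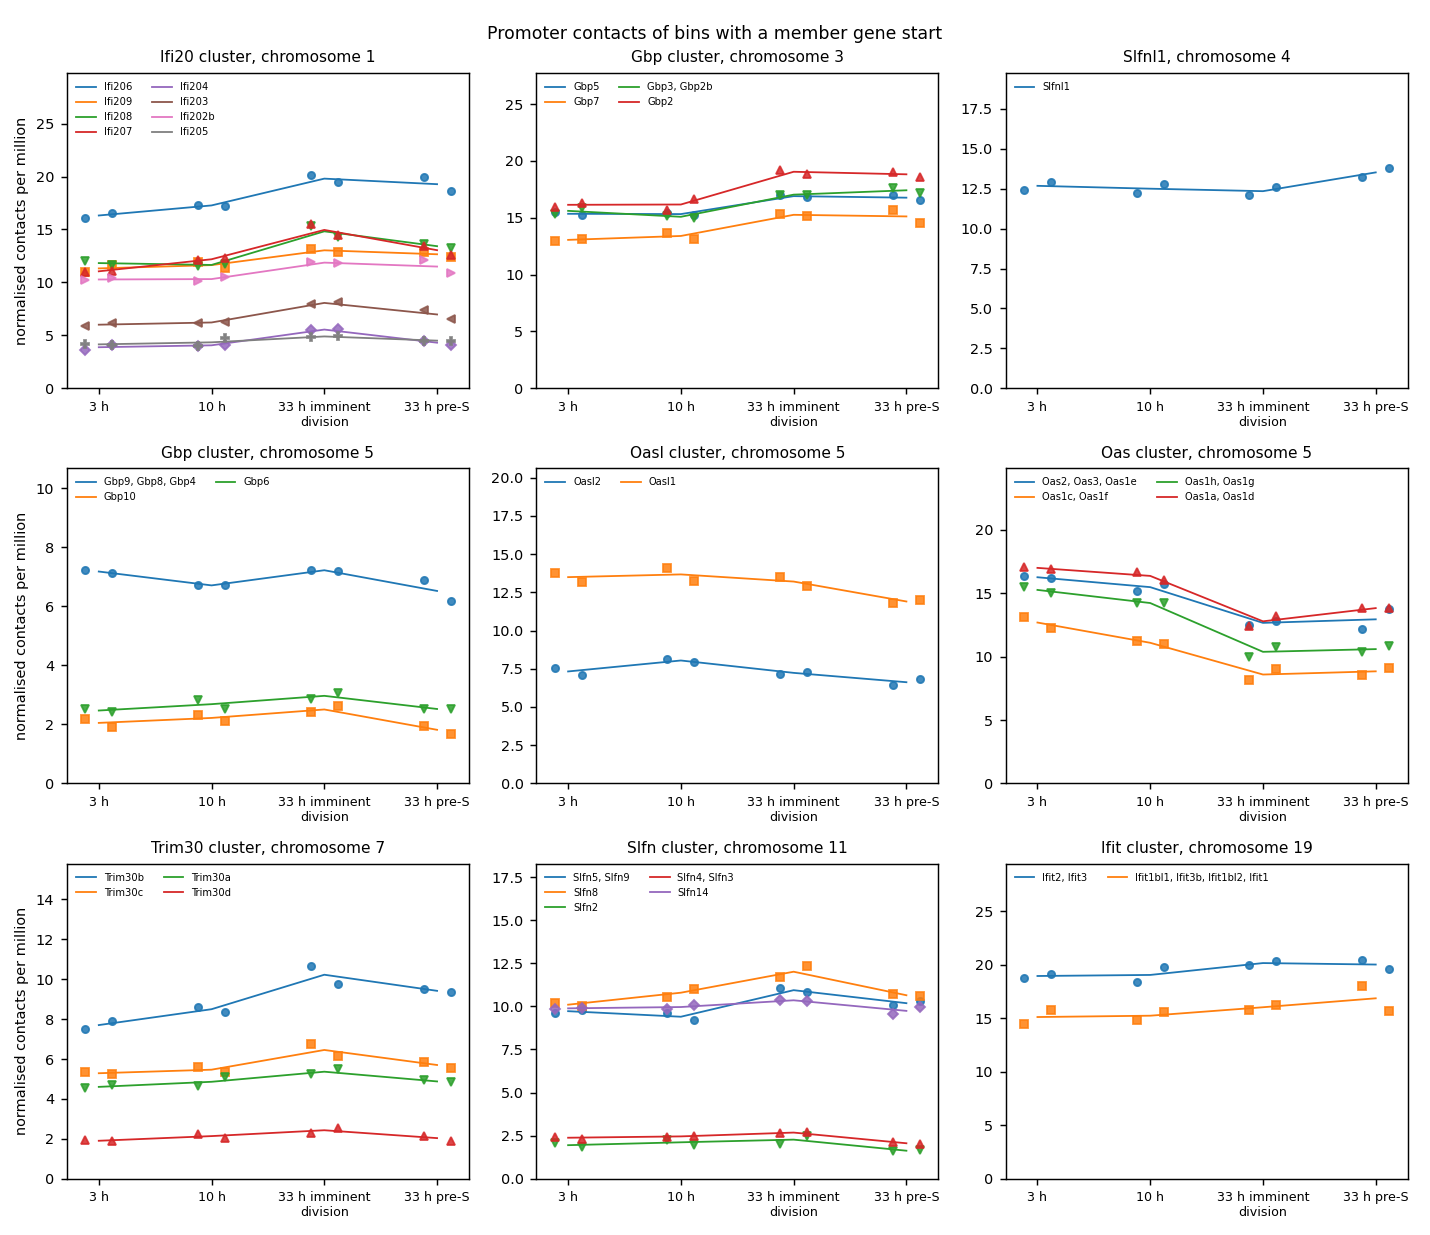
Normalised CPM of contacts (y axis) of the 33 bins with a member start in the 4 groups (x axis), 1 panel per cluster and 1 for Slfnl1. Points are the 2 libraries of a group and lines join the group means. All 4 Oas bins lie lower in the 33 h libraries than at 3 h and 10 h.

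Of the 8 clusters, the Oas cluster was the one in which every tested bin fell in both 33 h groups. The bin of Oas1h and Oas1g (chr5:120850163-120899714) had 15.5 and 15.01 normalised CPM in the 3 h libraries, 14.2 and 14.2 in those of 10 h, 9.98 and 10.8 in those of imminent division, and 10.3 and 10.8 in those of pre-S. All 33 h libraries lay below all earlier ones. The change from 10 h was -0.45 ± 0.04 (SE, FDR 8.9e-13) at imminent division and -0.43 ± 0.05 (FDR 7.3e-10) at pre-S. The bin of Oas1a and Oas1d, the former a main synthetase of the family, went from 17.0 and 16.9 (3 h) and 16.6 and 16.1 (10 h) to 12.4 and 13.2 (imminent division) and 13.8 and 13.8 (pre-S). The bin of Oas2, Oas3 and Oas1e had 16.3 and 16.2, 15.2 and 15.7, 12.5 and 12.8, and 12.1 and 13.7 in the same order. The bin of Oas1c and Oas1f had 13.1 and 12.2, 11.2 and 10.96, 8.18 and 8.99, and 8.56 and 9.11. In each of the 4 bins both 33 h groups lay wholly below the 10 h group. The share of all promoter bins that separate in this way is not given here. Changes at imminent division ran from -0.45 to -0.29 and at pre-S from -0.43 to -0.24. With all 8 libraries, none of the 4 was called between imminent division and pre-S, with changes of -0.11 to -0.02. Without imminent division replicate 2 these changes were -0.16 to -0.05, the lowest at the bin of Oas1a and Oas1d. All 4 calls against 10 h held with each library left out.

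Interchromosomal coverage is the contacts of a bin with other chromosomes relative to the median bin. This coverage was lower at pre-S than at 10 h in all 4 Oas bins, and the share of all bins where it was lower is not given here. For the bin of Oas1h and Oas1g it was 1.37 and 1.29 (10 h), 1.13 and 1.26 (imminent division) and 1.04 and 1.11 (pre-S). In the other Oas bins the imminent division libraries overlapped those of 10 h. The bin of Oas2, Oas3 and Oas1e had a coverage of 1.37 and 1.28 (10 h) and 1.26 and 1.36 (imminent division). With this coverage in the offsets, the 4 changes at imminent division stayed called at -0.28 to -0.21. At pre-S the bin of Oas1a and Oas1d then changed by -0.01 and that of Oas1c and Oas1f by -0.14, neither called, and the other two stayed called. The part of coverage in the Oas result was not tested further. The Oasl genes, which encode Oas-like proteins, lie elsewhere on chromosome 5. Oasl2 had 8.15 and 7.93 (10 h), 7.16 and 7.30 (imminent division) and 6.42 and 6.82 (pre-S), and fell by 0.15 ± 0.05 and 0.28 ± 0.06. By DESeq2 and without the interaction filter, 4 member bins in all were lower at imminent division, in place of 5. Oasl1 fell at pre-S by 0.20 ± 0.05, and its change at imminent division was -0.05 ± 0.04 (FDR 0.33). Its coverage was 1.75 and 1.77 (10 h) and 1.55 and 1.58 (pre-S). With coverage in the offsets, 5 member bins in all were called lower at pre-S, in place of 9. The 5 include Trim30c, which was not among the 9.

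The Ifi20 cluster moved the other way, and all 8 bins rose at imminent division, by 0.16 to 0.45 (log2). Ifi204, which encodes a nucleic acid-binding protein, had 4.04 and 4.08 (10 h), 5.46 and 5.63 (imminent division) and 4.502 and 4.11 (pre-S). It rose by 0.45 ± 0.06 (FDR 1e-08) at imminent division, while the change at pre-S was 0.09 ± 0.07 and was not called. The direct comparison of imminent division with pre-S gave 0.36 ± 0.06 for this bin. Ifi203 had 6.13 and 6.30 (10 h), 8.01 and 8.12 (imminent division) and 7.38 and 6.57 (pre-S). Ifi208 had 11.6 and 11.7, 15.4 and 14.3, and 13.6 and 13.2. In these 3 bins both imminent division libraries lay above all of the others, and the share of all bins where they did is not given here. Ifi206 rose by 0.20 ± 0.04, Ifi209 by 0.17 ± 0.04, Ifi202b by 0.20 ± 0.04, Ifi207 by 0.29 ± 0.04 and Ifi205 by 0.16 ± 0.06. Ifi205 was not called without imminent division replicate 2 (0.13, FDR 0.14) or without 10 h replicate 1, nor Ifi209 without 10 h replicate 2. Interchromosomal coverage lay higher at imminent division than at 10 h in every Ifi20 bin but that of Ifi205, where the libraries overlapped. The share of all bins where it lay higher is not given here. For Ifi208 this coverage was 0.945 and 0.952 (10 h), 1.034 and 1.101 (imminent division) and 0.969 and 0.971 (pre-S). With coverage in the offsets, 12 of the 33 member bins rose at imminent division in place of 19, and the Ifi20 changes were 0.11 to 0.36, with Ifi206, Ifi209 and Ifi205 no longer called. At pre-S, 5 of the 8 bins rose, of which DESeq2 called Ifi208, and 4 were higher at imminent division than at pre-S: Ifi208, Ifi207, Ifi204 and Ifi203.

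The Gbp genes of chromosome 3 rose in both 33 h groups. Gbp2, a guanylate-binding protein, had 15.7 and 16.7 normalised CPM (10 h), 19.2 and 18.9 (imminent division) and 19.1 and 18.6 (pre-S). Its change was 0.23 ± 0.04 (FDR 1.1e-06) and 0.22 ± 0.04 (FDR 5.3e-05). All 4 bins of this cluster rose in both comparisons, by 0.14 to 0.23 and by 0.13 to 0.22. By DESeq2, Gbp5 and Gbp7 were not called at pre-S. None was called between the 33 h groups, where the changes were -0.03 to 0.02. The Trim30 bins rose at imminent division, 4 of 4 by 0.14 to 0.26, and 1 of 4 did at pre-S. That 1, Trim30b, was not called at pre-S by DESeq2. Without imminent division replicate 2, Trim30a (0.09, FDR 0.28) and Trim30d (0.11, FDR 0.36) were not called, and with coverage in the offsets only Trim30c was, at 0.16. Trim30a was also lost without 10 h replicate 1 and Trim30d without 10 h replicate 2. Trim30b had 8.62 and 8.37 (10 h), 10.7 and 9.77 (imminent division) and 9.49 and 9.35 (pre-S). Trim30c changed by 0.24 ± 0.05 at imminent division, Trim30a by 0.14 ± 0.06 and Trim30d by 0.20 ± 0.08, and at pre-S these 3 were not called, with changes of 0.07, -0.00 and -0.06. With coverage in the offsets, Trim30c was called lower at pre-S, at -0.26.

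**Figure D2:**
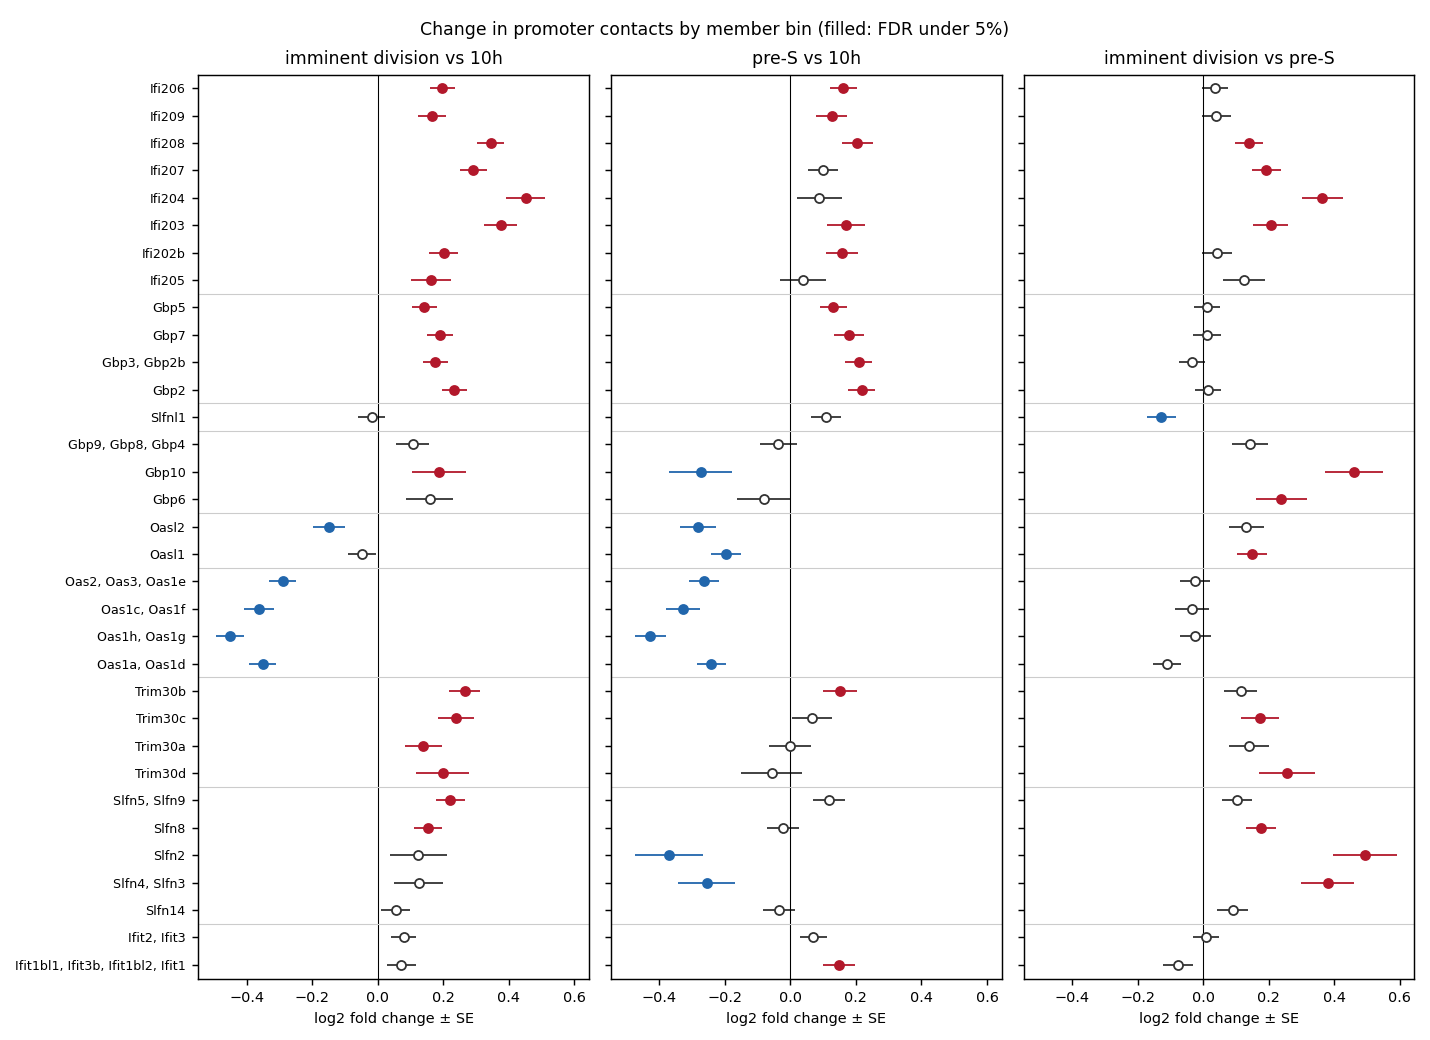
Log2 fold change (x axis) with its standard error for each bin with a member start (y axis, grouped by cluster) in 3 comparisons. Filled points passed an FDR of 5%. The Oas bins fell in both comparisons with 10 h, by 0.24 to 0.45, and the Gbp bins of chromosome 3 rose.

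In 3 bins with few contacts, values fell at pre-S and were higher at imminent division than at pre-S, by 0.38 to 0.49. Gbp10 had 2.31 and 2.13 (10 h), 2.40 and 2.61 (imminent division) and 1.96 and 1.68 (pre-S), with a change of 0.19 ± 0.08 (FDR 0.049) and of -0.27 ± 0.10 (FDR 0.021). Slfn2 had 2.25 and 1.97, 2.03 and 2.51, and 1.59 and 1.66, and fell at pre-S by 0.37 ± 0.10. The bin of Slfn4 and Slfn3 had 2.43 and 2.48, 2.65 and 2.71, and 2.103 and 2.009, and fell by 0.26 ± 0.09. With TMM factors the changes at pre-S were -0.01, -0.09 and -0.02, none of them called, so the fall of these 3 depends on the scaling. The other Gbp bins of chromosome 5 were not called against 10 h. Gbp6 changed by 0.16 ± 0.07 at imminent division and -0.08 ± 0.08 at pre-S, and the bin of Gbp9, Gbp8 and Gbp4 by 0.11 ± 0.05 and -0.04 ± 0.06. The rise of Gbp10 at imminent division was not called without imminent division replicate 2 or without 10 h replicate 2. In the Slfn cluster, the bin of Slfn5 and Slfn9 rose by 0.22 ± 0.04 at imminent division and Slfn8 by 0.15 ± 0.04. Slfn8 was not called without imminent division replicate 2 or without 10 h replicate 1, and the bin of Slfn5 and Slfn9 was not called with coverage in the offsets (0.08). Slfn14 was not called in any comparison (0.05 ± 0.04 at imminent division). The Ifit bins were not called at imminent division (0.08 ± 0.04 and 0.07 ± 0.04). That of Ifit2 and Ifit3 had 18.3 and 19.7 normalised CPM at 10 h against 19.9 and 20.4 at imminent division. The bin of Ifit1, Ifit1bl1, Ifit3b and Ifit1bl2 rose at pre-S by 0.15 ± 0.05, which DESeq2 did not call. Slfnl1 was not called against 10 h and was lower at imminent division than at pre-S by 0.13 ± 0.04. That call was not made with TMM factors, by DESeq2 or without the interaction filter.

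Of a list of 50 other interferon genes, 47 were placed and tested, in 44 distinct bins. At imminent division 6 rose and 17 fell, where 25.4% and 25.6% of all promoter bins did. At pre-S 5 rose and 10 fell, where 17.9% and 16.9% of all did. Psmb9, Tap1 and Psmb8, induced effectors counted among those that fell in both comparisons, share 1 bin and so 1 value, while the shares are of bins. Of the list, none was called between 3 h and 10 h. Without imminent division replicate 2, 5 rose and 13 fell at imminent division, and without 10 h replicate 1, 2 rose and 12 fell. At pre-S there were 4 higher and 17 lower with TMM factors, and 1 higher and 6 lower without pre-S replicate 1. Their median change at imminent division was -0.05. By role at imminent division, 4 of 6 receptor genes fell and 1 rose. Those 4, Ifnar2, Il10rb, Ifnar1 and Ifngr2, are neighbours in the genome, so their bins can share contacts. Ifnar1 and Ifngr2 were not called by DESeq2, without the interaction filter or with the replicate block. Of 7 IRF genes 3 fell and none rose, and of 19 induced effectors 6 fell and 1 rose. Of 5 kinase or STAT genes 2 rose and 1 fell, of 7 sensors 2 rose and 2 fell, and of 3 inhibitors 1 fell. Without imminent division replicate 2 the receptor genes that fell were 2, the IRF genes 2 and the induced effectors 6. Mx1, an antiviral GTPase, fell by 0.54 ± 0.08 at imminent division and 0.59 ± 0.09 at pre-S, from a mean of 2.92 CPM at 10 h to 2.008 and 1.93. Il10rb, a receptor chain of interferon lambda, fell by 0.24 ± 0.04 at imminent division, and Tyk2, a Janus kinase, fell by 0.22 ± 0.04 there and 0.24 ± 0.04 at pre-S. Ifngr1, the interferon gamma receptor, rose by 0.26 ± 0.04 at imminent division. Ifih1, a sensor of viral RNA, rose by 0.35 ± 0.05 at pre-S, and Socs3, an inhibitor of cytokine signalling, fell by 0.24 ± 0.05 there. Between the 33 h groups, Ifngr1 was higher at imminent division by 0.18 ± 0.05, while Ifih1, the exonuclease gene Isg20 and Irf9 changed by -0.17, -0.16 and -0.13. Without imminent division replicate 2 the list had 1 higher and none lower between the 33 h groups, against 2 and 4, and these 3 were not called. With coverage in the offsets the calls of Mx1 and Ifih1 at pre-S and of Ifngr1 between the 33 h groups were lost, and without pre-S replicate 1 those of Socs3 at pre-S and Ifngr1 between the 33 h groups.

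Single interactions of the start bins were tested as bin pairs, 2096 of 1458012. Between 3 h and 10 h none of them was called by edgeR, where 0.000617% of all pairs were (0.000549% stronger and 6.86e-05% weaker), and 145 had an unadjusted p under 0.05, against 86495 of all pairs. DESeq2 also called none. Between 10 h and imminent division 14 were stronger and 29 weaker, where 0.691% and 1.32% of all pairs were (2.01% in either direction). Of the 29 weaker ones, 21 had an anchor in the Oas cluster, of 292 pairs tested there. The median change over those 292 was -0.41, and 81.8% of them were negative, while the median over all member pairs was -0.05 (-0.15 with TMM factors and by DESeq2, and -0.17 with coverage in the offsets). The Oasl pairs had a median of -0.40 over 73 pairs, with 2 weaker. Stronger pairs lay in the Gbp cluster of chromosome 3 (5), the Trim30 (5) and the Ifi20 cluster (2), and in the Slfn and Ifit clusters (1 each). Weaker pairs spanned a median of 650 kb and stronger ones 1775 kb. The most significant joined the bin of Oas2, Oas3 and Oas1e with the bin 300 kb away that holds the starts of Sdsl and Sds. It had 107.3 and 109.1 normalised counts (10 h), 59.2 and 60.2 (imminent division) and 64.1 and 74.4 (pre-S), a change of -0.86 at imminent division that held with each library left out. The others named here were each lost without at least 1 library. The pair of Ifi206 with a bin 1000 kb away had 70.0 and 50.5 counts at 10 h and 29.3 and 28.0 at imminent division. The pair of Trim30c with the bin of Fam160a2, Cnga4 and Cckbr, also 1000 kb away, had 34.7 and 29.5 against 10.7 and 13.1.

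The 3 strengthened pairs with the smallest p had few counts. Their raw counts are not scaled for depth, and both imminent division libraries held more read pairs than any other library. They held 180325399 and 218945191, against 116957398 and 153258311 at 10 h and 117386199 and 105015427 at pre-S. Raw counts at imminent division are thus raised by depth too, and their ratio to those of other groups is not the tested change. Ifi209 with a bin 1650 kb away had raw counts of 1 and 2 at 10 h and 17 and 18 at imminent division. Trim30b with a bin of Olfr543, Olfr544 and Olfr545 (olfactory receptor genes) had raw counts of 13 and 10 against 30 and 49, and Trim30d with the bin of Olfr549, Trim21, Olfr550, Olfr551 and Olfr552 had 3 and 3 against 13 and 24. Leaving out 10 h replicate 2 took the count of calls from 43 to 6, and without imminent division replicate 2 there were 4 stronger and 21 weaker. By DESeq2, 8 member pairs were weaker and none stronger, with no adjusted p for 1969 of the 2096. None of these 8 was among the 43 that edgeR called, of which 40 had no adjusted p by DESeq2 and the other 3 were not called by it.

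Between 10 h and pre-S 1 pair was stronger and 10 weaker, where 0.339% and 0.255% of all pairs were (with TMM factors, 3337 stronger and 7911 weaker over all pairs, against 4942 and 3716). In the Oas cluster 5 were weaker and the median change was -0.54, and in the Oasl cluster 3 were weaker and it was -0.41. Oasl2 with the bin of Sppl3, 150 kb away, had 114.4 and 93.4 normalised counts at 10 h and 61.7 and 53.7 at pre-S. Oasl2 with the bin of Tchp, 150 kb away on the other side, had 160.7 and 146.2 against 85.5 and 109.9. The bin of Oas1c and Oas1f with that of Erp29 and Tmem116 had 38.6 and 25.7 against 6.8 and 14.3. The stronger pair, Trim30d with the bin of Olfr553 and Olfr554, rested on raw counts of 3 and 1 against 15 and 7. Without 10 h replicate 1 none of the 11 was called. Between the 33 h groups 2 pairs were stronger and 2 weaker at imminent division, where 0.146% and 0.214% of all pairs were. By DESeq2, 145 of all pairs were stronger and 61 weaker, against 2130 and 3115, so the genome-wide split turns with the method. The 2 weaker member pairs were Ifi206 with the bin 1000 kb away described above (-1.03) and Trim30a with the bin of Cavin3 (15.7 and 7.1 normalised counts against 23.7 and 31.4). The stronger ones included Oas1c and Oas1f with a bin 150 kb away (88.5 and 86.9 against 51.3 and 55.1). The other joined the bin of Oas2, Oas3 and Oas1e with that of Scarb1. It had raw counts of 14 and 18 against 0 and 3, not scaled for the greater depth of the imminent division libraries. None of these 4 pairs was called without imminent division replicate 2.

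Contacts of the start bins at set distances, over those expected for the chromosome, are given as a description. At 1-5 Mb the Oas bins had log2 ratios of 0.15 to 0.25 at 3 h and 10 h, -0.21 and -0.11 (imminent division), and -0.29 and -0.19 (pre-S). At 200 kb to 1 Mb they had 0.61 and 0.63 (10 h), 0.09 and 0.21 (imminent division) and 0.13 and 0.18 (pre-S). At 5-20 Mb they had 0.94 and 0.99, 0.58 and 0.78, and 0.55 and 0.63. At 3 h the second class ranged from 0.27 to 0.60, so 1 of the 2 libraries lay near the 33 h values. The Ifi20 bins at 1-5 Mb had 0.11 and 0.15 (10 h), 0.28 and 0.38 (imminent division) and 0.13 and 0.16 (pre-S). At 200 kb to 1 Mb the same bins moved the other way, with 0.57 and 0.59 (10 h), 0.46 and 0.47 (imminent division) and 0.50 and 0.41 (pre-S).

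**Figure D3:**
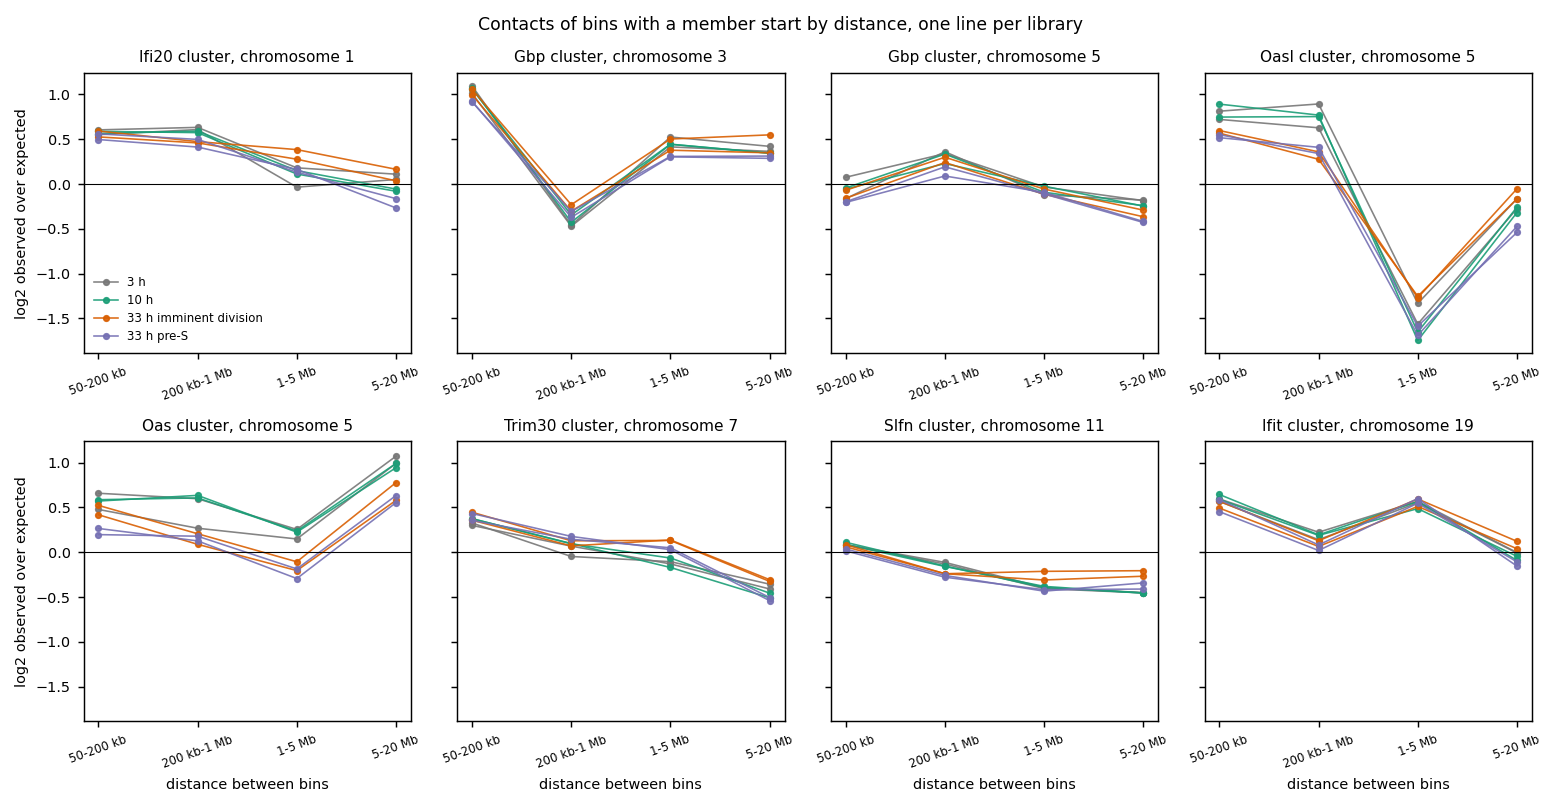
Log2 observed over expected contacts (y axis) of bins with a member start in 4 classes of distance (x axis), 1 panel per cluster and 1 line per library, coloured by group. At 1-5 Mb the 33 h libraries of the Oas cluster lie at -0.29 to -0.11 and the earlier ones at 0.15 to 0.25.

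Insulation was measured as contacts that cross a bin against contacts within its 500 kb sides, so that a lower value is a stronger insulation. The sides of neighbouring bins largely overlap, so the bins of 1 cluster are not independent and their counts are not separate findings. Between 3 h and 10 h 6 of 34 member bins were higher and 2 lower, where 9.15% and 7.36% of 46668 bins were. With TMM factors 2 were higher and 2 lower, and the 8 calls became 1 without 3 h replicate 2 and 14 without 3 h replicate 1. Between 10 h and imminent division 5 were higher and 22 lower, where 47.2% and 25.6% of all bins were. With TMM factors the members were 2 higher and 26 lower and all bins 12783 higher and 15786 lower, against 22014 and 11925, so the genome-wide split turns with the scaling, while most member bins were lower under both. Between 10 h and pre-S none was higher and 8 were lower, where 16.7% and 12.9% of all bins were (29.6% in either direction), and with TMM factors 22 were lower, with 2218 higher and 15270 lower over all bins against 7780 and 6019. Between the 33 h groups 5 were higher and 21 lower at imminent division, where 38.0% and 21.2% of all bins were. Without imminent division replicate 2 the counts were 3 higher and 18 lower against 10 h, and 5 higher and 19 lower against pre-S. The median change from 10 h to imminent division over all bins was 0.08.

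At imminent division, all 6 Slfn bins, both Oasl bins and both Ifit bins were lower, as were 6 of 8 Ifi20, 3 of 4 Gbp bins of chromosome 3 and 3 of 4 Trim30 bins. Without imminent division replicate 2, Slfn14, Ifi208, Trim30c and Trim30a were not called (FDR 0.14, 0.068, 0.068 and 0.18), which left 1 of 4 Trim30 bins. Slfn14 was also lost without each of the other 3 libraries of this comparison, and Trim30c and Trim30a without 10 h replicate 1. The values per library given here are relative to the median of that library and the changes are not, so a change differs from the difference of the values. Oasl1 had log2 values of 0.16 and 0.24 (10 h), -0.22 and -0.18 (imminent division) and 0.05 and 0.06 (pre-S). Its change at imminent division was -0.31 ± 0.03 (FDR 6e-12). Ifi203 had 0.82 and 0.82, 0.47 and 0.41, and 0.69 and 0.66. The bin of Gbp3 and Gbp2b had 0.80 and 0.79, 0.44 and 0.49, and 0.61 and 0.71. Gbp6 of chromosome 5 went the other way, with -0.55 and -0.60 at 10 h and -0.42 and -0.47 at imminent division, a rise of 0.23 ± 0.04, as did Gbp10 with 0.19 ± 0.04. Both Gbp bins had been lower at 10 h than at 3 h, by 0.19 each, which for Gbp10 was not called without 3 h replicate 2 or with sides of 250 kb. Of the 4 Oas bins, those of Oas1h and Oas1g and of Oas1a and Oas1d were called higher at imminent division, by 0.11 ± 0.04 and 0.08 ± 0.04, close to the median of 0.08 over all bins. Neither was called with TMM factors (0.03 and 0.01) or with sides of 1 Mb (-0.02 each). Both were lost without 10 h replicate 1 and without imminent division replicate 1, and the bin of Oas1a and Oas1d also without imminent division replicate 2 (FDR 0.054). Ifi206 was higher by 0.13 ± 0.04, which was lost without imminent division replicate 2 or 10 h replicate 1.

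**Figure D4:**
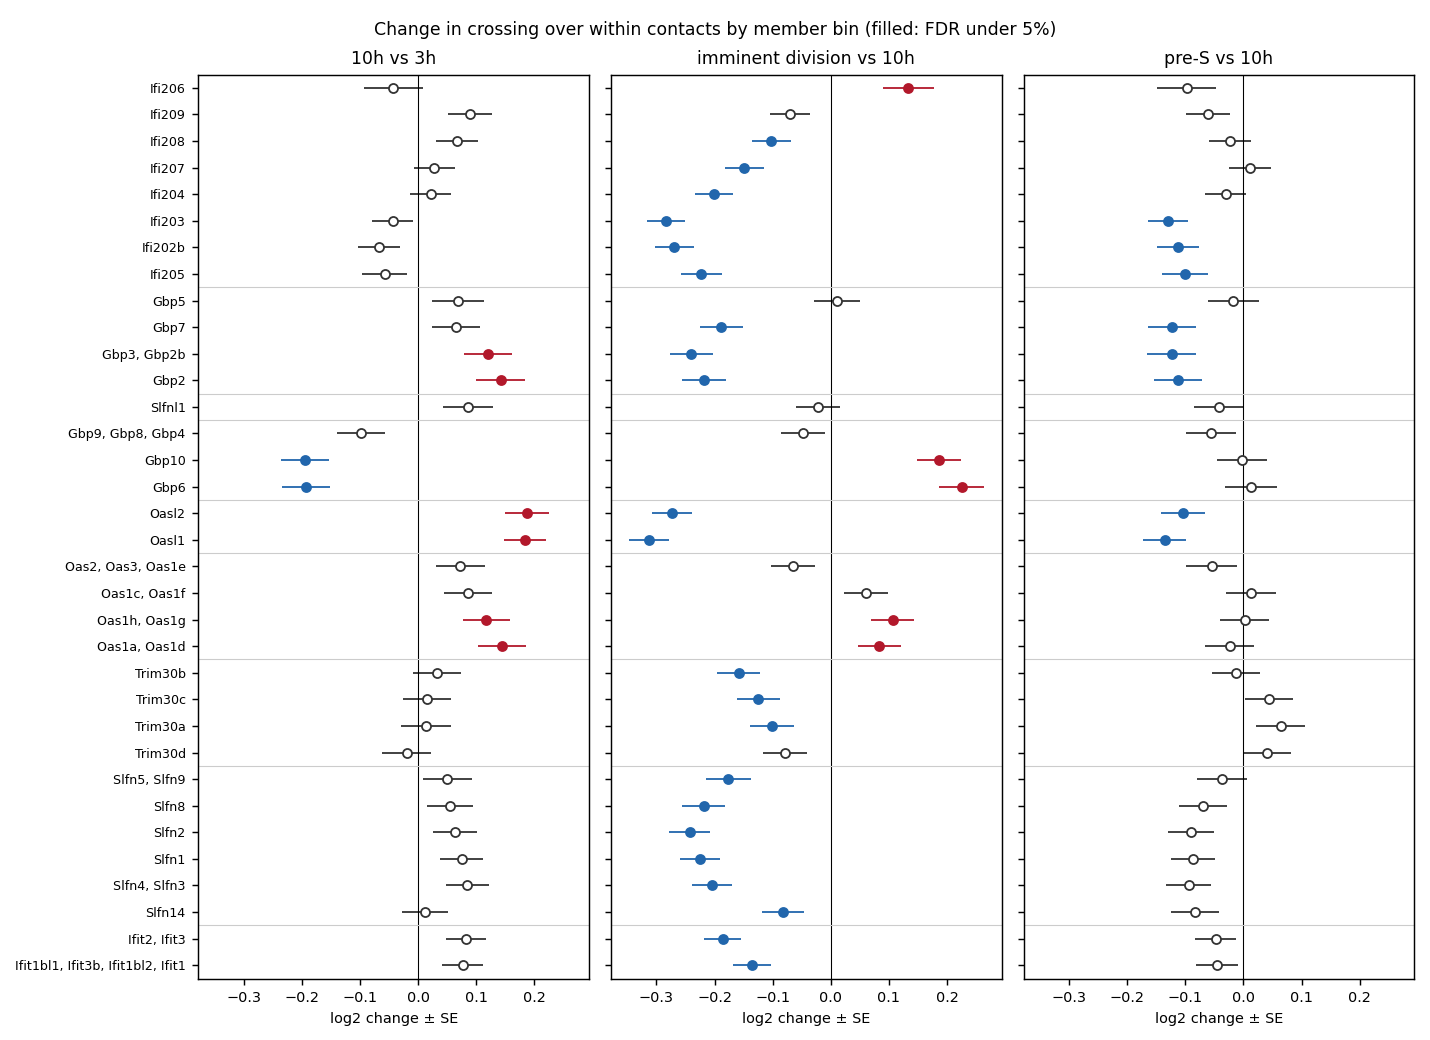
Log2 change in crossing over within contacts (x axis) with its standard error for each bin with a member start (y axis), in 3 comparisons. Filled points passed an FDR of 5%. At imminent division the Slfn, Oasl and Ifit bins were lower, Gbp10 and Gbp6 higher.

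The separation of a cluster was the log2 observed over expected within it minus that between it and its flanks, 1 value per library. Gbp on chromosome 3 had 0.65 and 0.53 (3 h), 0.50 and 0.49 (10 h), 0.37 and 0.31 (imminent division) and 0.44 and 0.39 (pre-S). The groups differed by an exact permutation test (p 0.00952, the smallest that 4 groups of 2 allow, not adjusted over the 8 clusters). With counts divided by coverage it was 0.0667, and it was 0.0857 without imminent division replicate 2, 0.0667 without 10 h replicate 1 and 0.0571 without 10 h replicate 2. The other 7 clusters had exact permutation p of 0.114 to 1.0, with Gbp on chromosome 3 described further here. With counts divided by coverage its mean separation was 0.27 (3 h), 0.18 (10 h), 0.06 (imminent division) and 0.09 (pre-S), against 0.59, 0.49, 0.34 and 0.42. Within its own bins, Gbp on chromosome 3 stood 1.08 to 1.34 above the expected on the log2 scale in the 8 libraries. The Ifi20 cluster stood 0.64 to 0.80 above it and the Ifit cluster 0.59 to 0.81. The Oasl cluster, with 1 pair of bins, stood 0.36 to 0.82 above it. The Oas cluster stood 0.14 to 0.57 above it, Trim30 0.16 to 0.33 and Slfn 0.10 to 0.19. Gbp on chromosome 5 lay at -0.17 to 0.16. In the Oasl, Oas and Trim30 clusters the separation was negative in every library, from -0.38 to -0.06 in Oasl.

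**Figure D5:**
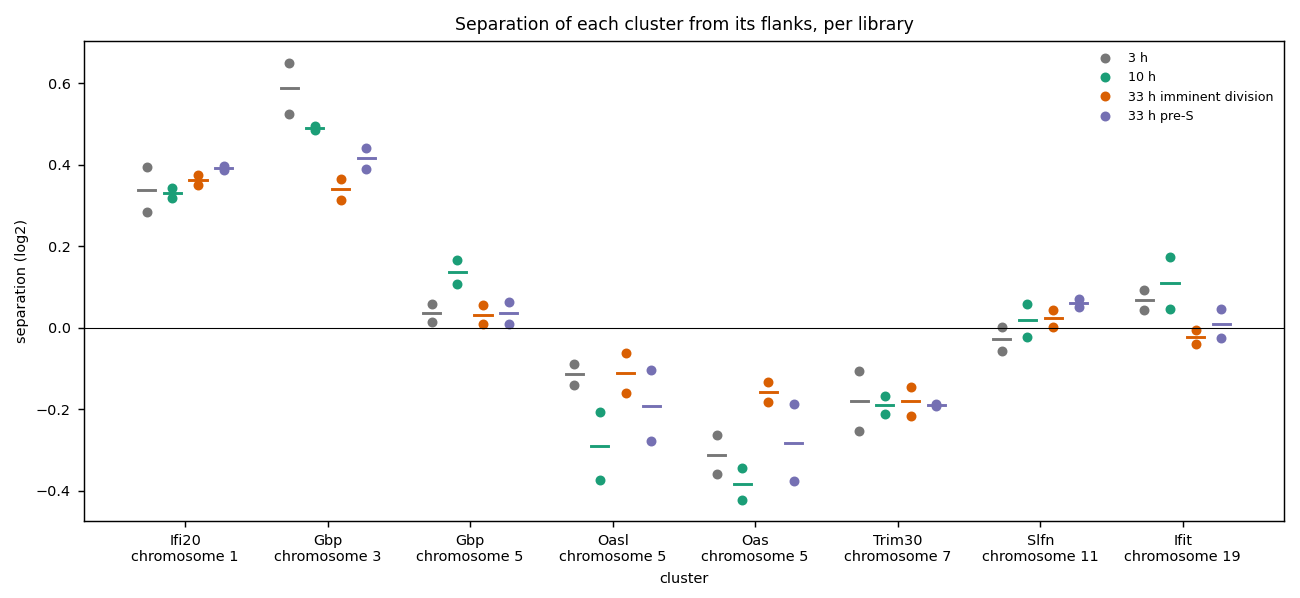
Separation from the flanks on the log2 scale (y axis) of each cluster (x axis). Points are libraries and short lines group means. The Gbp cluster of chromosome 3 is highest at 3 h, 0.65 and 0.53, and lowest at imminent division, 0.37 and 0.31.

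Compartments were read from the first principal component of each library at 100 kb, positive in the gene-rich A compartment. The sign was set by the number of gene starts, which favours positive values at bins with a start. The share of all start bins that were positive is not given here, so the member count is a description only. Of the 34 start bins, 32 were positive in all 8 libraries. The exceptions were Gbp10 and Gbp6, which share a region that ranged from -0.000352 to 0.329. At 250 kb both were positive in all libraries, 33 bins were, and the exception was Trim30d, with -0.216 to 0.110. No region changed sign between 2 groups in every library. Contacts between clusters on different chromosomes numbered 26 to 80 per library over 573 bin pairs. They exceeded the product of coverages by a median ratio of 1.77, and no difference among the 4 groups was detected by an exact permutation test (p 0.771). In pre-S replicate 2 the ratio was 1.45, with a Poisson interval of 0.948 to 2.13. This expectation takes no account of compartment, and other A bins were not used as a reference. Whether the excess is particular to these clusters was not tested.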

How the data were processed

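In situ Hi-C was measured in 8 libraries of mouse B cells. The deposited files hold raw counts of read pairs per pair of 50 kb bins, unscaled, 1 library each; per the methods, the authors aligned reads to mm10 with diffHic, marked duplicates and removed dangling ends. The matrices carry no coordinates, so bins were rebuilt from MboI sites of 66 GRCm38 sequences, giving 53357 bins, which matches the size of every matrix. Among 48088 autosomal bins, 756 were left out (undetermined bases above 10%, or coverage over 4-fold from the median). Genes came from GENCODE M21. The members and lists were chosen with earlier results of these data known. Named were all members, up to 4 called genes of the interferon list and 3 pairs per direction with the smallest p in each comparison. Promoter bins passed a low-count filter set at 200 counts for a library of median size, so single libraries can hold fewer. These bins, bin pairs with at least 10 counts and over 4-fold the interchromosomal background, and insulation (500 kb sides, average log2 CPM of at least 1) were fitted with edgeR 4.0.16 in R 4.3.3 (quasi-likelihood, 4 groups, Benjamini-Hochberg over all features, FDR 5%). Loess offsets were used except for insulation, where each column was scaled to its total. DESeq2 1.42.0, TMM factors, coverage offsets, other filters and leaving out each library were alternatives. Flanks of a cluster were as wide as it, at least 5 bins. The scripts were tested on simulated data. Near-identical gene copies can share reads, so single members are uncertain. Counting does not use strand. Read pairs carry no molecular identifiers. The libraries are biological duplicates, and the replicate numbers were not used as pairs. One marker of the sorting gates is not reported here.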

Additional observations from a re-analysis of the deposited data

Results flagged for a closer look

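The bin of Gbp10 was called higher at imminent division and lower at pre-S against 10 h, and the test of the difference between the 33 h groups gave 0.46 ± 0.09 on the log2 scale (edgeR quasi-likelihood test, FDR 0.00012). The difference was 0.23 with TMM factors and was still called, while the change at pre-S was then -0.01. By DESeq2 the difference was 0.24 and was not called (adjusted p 0.26). The change at imminent division (0.19, FDR 0.049) was not called without imminent division replicate 2 (0.11, FDR 0.36) or without 10 h replicate 2, nor with the replicate block, coverage in the offsets or DESeq2, and was -0.09 without the interaction filter. The change at pre-S was not called without 10 h replicate 1 or without pre-S replicate 2. The bin held 1.68 to 2.61 normalised CPM in the 8 libraries. The bins of Slfn2 and of Slfn4 and Slfn3, with like levels, were higher at imminent division than at pre-S by 0.49 and 0.38. Without imminent division replicate 2 these differences were 0.33 and 0.36.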

How the results depend on the processing

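Counts of called member bins or pairs are given here, higher and lower together. Calls over all features also changed with the setting, so a change in a member count is not by itself a trait of the members. For promoters between 3 h and 10 h (1 call), TMM factors, DESeq2, no interaction filter and the replicate block each gave 0, and coverage offsets lost that call and gave 1 other; at pre-S against 10 h (20), coverage offsets gave 10 and DESeq2 9; between the 33 h groups (13), TMM gave 8 and DESeq2 4. For bin pairs at imminent division (43), DESeq2 gave 8, TMM 74 and coverage offsets 86. Over all pairs they gave 44 stronger and 8248 weaker, 18699 and 37674, and 18994 and 38338, against 10081 and 19250. At pre-S (11) they gave 0, 19 and 6. Over all pairs they gave 38 and 730, 3337 and 7911, and 2499 and 7502, against 4942 and 3716. Between the 33 h groups (4), DESeq2 gave 0, coverage offsets 15 and an 8-fold background 8. Over all pairs they gave 145 and 61, 11404 and 13285, and 2441 and 4482, against 2130 and 3115. For insulation, sides of 250 kb gave 5 between 3 h and 10 h (8), 5 at pre-S (8) and 17 between the 33 h groups (26); TMM gave 4 between 3 h and 10 h and 22 at pre-S, and sides of 1 Mb 16 at pre-S. With counts divided by coverage, the exact permutation p of the separation was 0.0667 for Gbp on chromosome 3 and 0.0476 for Trim30 (1.0 as reported).

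Leaving out each library gave, over the 4 comparisons in the order 10 h against 3 h, imminent division against 10 h, pre-S against 10 h and imminent division against pre-S, 0 to 1, 19 to 25, 10 to 22 and 6 to 14 promoter bins; 0 to 0, 6 to 55, 0 to 12 and 0 to 6 pairs; and 1 to 14, 21 to 29, 1 to 11 and 18 to 26 insulation bins. The lowest values came without 3 h replicate 1, imminent division replicate 2, pre-S replicate 1 and pre-S replicate 2 for promoters; without 10 h replicate 2, 10 h replicate 1 and imminent division replicate 2 for the last 3 comparisons of pairs; and without 3 h replicate 2, 10 h replicate 1, pre-S replicate 1 and pre-S replicate 2 for insulation. The exact permutation p of the separation ranged from 0.0190 to 0.762 for Ifi20, 0.00952 to 0.0857 for Gbp on chromosome 3, 0.114 to 0.467 for Gbp on chromosome 5, 0.238 to 0.657 for Oasl, 0.105 to 0.476 for Oas, 0.371 to 1.0 for Trim30, 0.171 to 0.581 for Slfn and 0.0667 to 0.448 for Ifit. The interchromosomal ratio ranged from 1.71 to 1.83, against 2.48 with the flat expectation, and bins in compartment A from 32 to 34.

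The direction turned for Trim30c promoters at pre-S with coverage offsets (-0.255), and without the interaction filter for Gbp10 at imminent division (-0.0884) and Gbp3 with Gbp2b between the 33 h groups (0.10). In insulation it turned with 250 kb sides for Oas2, Oas3 and Oas1e (0.17 at imminent division, 0.24 between the 33 h groups) and Gbp9, Gbp8 and Gbp4 (-0.22). With 1 Mb sides it turned for Trim30d at 10 h (0.10), Oas1c with Oas1f (-0.0856 at imminent division, -0.0930 at pre-S), Oas1h with Oas1g and Oas1a with Oas1d at imminent division (-0.0188 and -0.0209), Trim30c, Trim30a and Trim30d at pre-S (-0.0823, -0.0743 and -0.0878) and Slfn14 between the 33 h groups (-0.0806). The cause was not tested.

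Same-numbered replicates correlated at -0.247 to 0.0966, so the numbers were not taken to pair the samples. With the replicate block, the counts were 0, 23, 20 and 13 for promoters, 0, 36, 10 and 3 for pairs and 7, 27, 7 and 25 for insulation. The separation of Gbp on chromosome 3 then had an exact permutation p of 0.0417, the smallest that permuting within replicate numbers allows.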
